A study of Mus musculus with 30 samples.

Results

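The 10 libraries described here came from 5 cultures of bone marrow-derived dendritic cells (BMDCs) labelled *Cacnb3*-/-. They were chosen by genotype label and library name, 5 with names ending in 0p5h and 5 with names ending in ctrl, out of 30 libraries in the series. BMDCs are cells grown from mouse bone marrow in medium with GM-CSF, here for 6 days, and the libraries were made from polyA RNA. The series as a whole exposed WT and *Cacnb3*-/- BMDCs to a 30 min pulse of ATP at 500 µM, and by the labels cells were harvested at once or 24 h later; the methods name an unstimulated set besides. The methods place *Cacnb3*-/- mice on C57BL/6N and WT mice on C57BL/6J, adult and of both sexes, so that strain and genotype cannot be told apart between them. The notation is that of a constitutive deletion, not one limited to DCs. Library names and the treatment field disagree, since libraries named ctrl carry a field that reads 30 min of ATP, and those named 0p5h one that reads vehicle. Sets are therefore called by their library names, and which of them was unstimulated is not resolved here. The *Cacnb3*-/- cultures are numbered p974s843, p974s851, p974s852, p974s853 and p974s865, and values listed below follow that order. Each number has 1 library in either set, and no label says that a number stands for 1 animal.

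Extracellular ATP released by damaged cells acts on ion channel receptors of the P2X family and on G protein-coupled receptors of the P2Y family, which raise calcium in the cytosol. In many cell types calcium, cAMP and MAP kinases switch on immediate early genes within minutes without new protein synthesis, and most of their transcripts are short-lived. CACNB3 is the β3 subunit of voltage-gated calcium channels and also binds receptors that release calcium from internal stores. Immediate early products are mainly transcription factors of the AP-1, EGR and NR4A families, together with phosphatases and RNA-binding proteins that end the signal, and they are followed by cytokines and chemokines.

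Reads were counted on *Cacnb3* (ENSMUSG00000003352, chromosome 15, 98632220 to 98644530 on GRCm38) in all 10 libraries labelled *Cacnb3*-/-. It stood at 1317, 1020, 954, 1073 and 777 CPM in the ctrl set and at 751, 997, 987, 1331 and 753 CPM in the 0p5h set, where CPM is the count per 1000000 reads after edgeR's TMM scaling. The sets overlapped, and the log2 fold change was -0.12 (SE 0.14; edgeR, Benjamini-Hochberg adjusted p = 0.747), where SE is the standard error. A count over a whole gene does not tell which exons were read, so the deletion could not be checked.

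The 10 libraries held between 12703988 and 22826581 counts on genes. Neither this total nor the mitochondrial share of counts separated the sets (exact paired permutation tests, two-sided, n = 5 cultures, p = 0.563 and 0.625, both 0.625 after Benjamini-Hochberg adjustment over the pair of tests; the smallest p that 5 pairs allow is 0.063). The mitochondrial share ran from 2.61% to 10.4% in the ctrl set and from 2.16% to 10.5% in the 0p5h set. It was lower in the 0p5h library in 4 of 5 cultures, and in culture p974s843 it went from 4.83% to 10.5%. Summed CPM of 14 dendritic cell markers lay between 23412 and 34896 in the ctrl set and between 27941 and 41075 in the 0p5h set, higher in 5 of 5 cultures, and 0 of the 14 passed the test below (5 at an unadjusted p under 0.05, 2 passed in DESeq2 and 1 in limma-voom). Over all genes tested, 1968 of 12750 had an unadjusted p under 0.05. Without culture p974s843, 6 of the 14 passed, all higher and below 2-fold, against 1198 of all 12709 genes tested in that fit. The 12 macrophage markers summed to between 1452 and 4118 CPM and between 1364 and 5539 CPM, higher in 4 of 5 cultures, and *Cd14* was the 1 marker that passed. The median log2 fold change of the 12 was 0.01, and *Cd14* alone went from a mean of 369 to 990 CPM. The 14 granulocyte markers summed to 312 to 556 CPM and 381 to 579 CPM, higher in 3 of 5 cultures. The 8 mast cell and basophil markers summed to 107 to 155 CPM and 116 to 199 CPM, higher in 4 of 5 cultures, and 1 of the 5 tested, *Gata2*, passed below 2-fold (0.61). T cell, B cell and erythroid markers stayed at or under 7.92 CPM in sum in either set, with *Hbb-bs* at 0 in all 10 libraries. The part of these shifts in the changes below was not tested, and in bulk RNA fewer cells of a type cannot be told apart from less RNA per cell.

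Between the 2 sets, a small group of genes changed and most of it rose. Of 12750 genes tested within cultures, 74 were called higher in the 0p5h set, which is 0.58% of the genes tested, and 8 were called lower, which is 0.0627%. A call needed an adjusted p under 0.05 from edgeR's quasi-likelihood test with Benjamini-Hochberg adjustment and a change of at least 2-fold, with the culture number as a block. The rises ran from 2.02-fold to 35.2-fold with a median of 2.90-fold. Of these, 21 were at least 4-fold and 8 at least 8-fold. With no fold minimum, 299 genes passed (2.35%), 206 of them higher and 93 lower, while the median log2 fold change of all genes tested was -0.01. Before adjustment, 1968 of the 12750 genes had p under 0.05. Without culture p974s843, whose mitochondrial share rose, 83 genes were called higher and 31 lower, and 72 of the 74 rises and 7 of the 8 falls were among them. With no fold minimum, 1198 of 12709 genes tested passed without it, against 299 of 12750 with it. Some genes named below as not passing passed in that fit, each below 2-fold. These were *Pde4b*, *Nfkb2*, *Vegfa*, *Il1rn*, *Ccl22*, *Ccl5*, *Ccr7*, *Ptger4*, *Cd83*, *Tnfrsf9*, *Cd74*, *H2-Aa*, *Mx1*, *Aldoa*, *Ldha* and *Txnip*. Without the block the calls were 36 and 1.

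**Figure D1:**
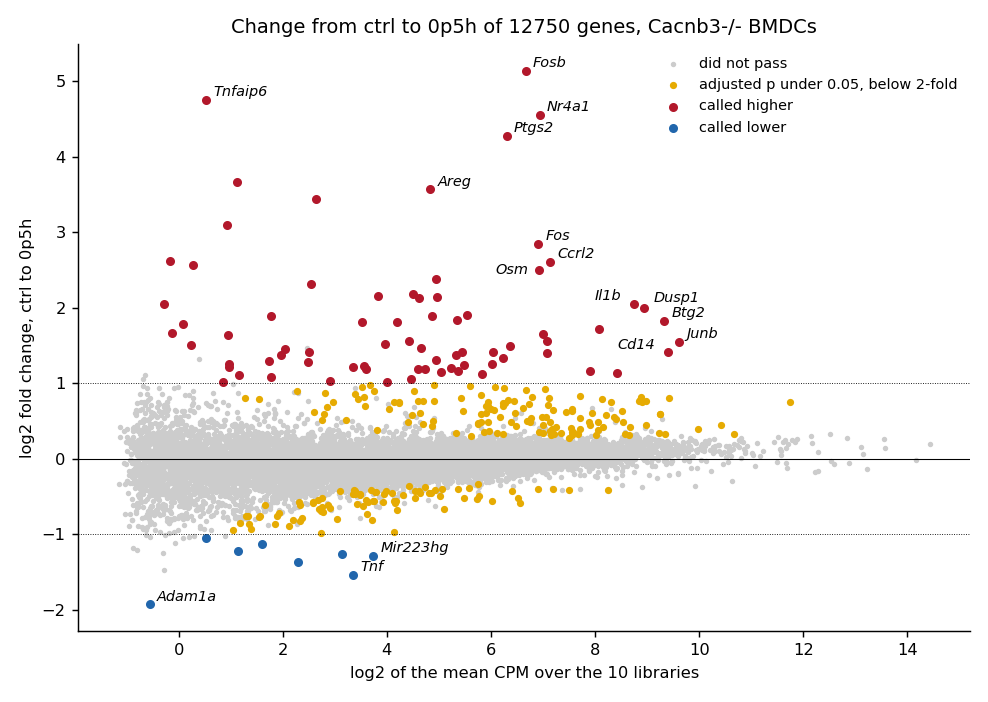
Log2 fold change from ctrl to 0p5h (y axis) of all 12750 genes tested in *Cacnb3*-/- BMDCs against the log2 of their mean CPM over the 10 libraries (x axis). Dotted lines mark 2-fold, red points are the 74 genes called higher, blue points the 8 called lower, and yellow points passed the test below 2-fold.

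The rises were found in every culture. Of the 74 genes, 73 were higher in the 0p5h library of 5 of 5 cultures, and *Fosl1* was higher in 4 of 5, the exception being culture p974s852. Across all 12750 genes tested, 1245 were higher in 5 of 5 cultures. The 74 were called on these same cultures, so their agreement is not separate support for the calls. The median log2 change of the 74 was 1.55, 1.60, 1.35, 1.34 and 1.77 in the 5 cultures. For 45 of the 74 the lowest 0p5h library lay above the highest ctrl library, and across all genes tested the sets did not overlap for 97 genes with 0p5h higher (0.761%) and 62 with 0p5h lower (0.486%). In the others, cultures differed from each other by more than the change. *Cd14* (ENSMUSG00000051439), a co-receptor for lipopolysaccharide, stood at 397, 454, 83.8, 159 and 751 CPM in the ctrl set and at 1167, 1070, 232, 418 and 2064 CPM in the 0p5h set. It was higher in 5 of 5 cultures although the sets overlapped (log2 change 1.41, SE 0.07; edgeR, Benjamini-Hochberg adjusted p = 1.38e-05).

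**Figure D2:**
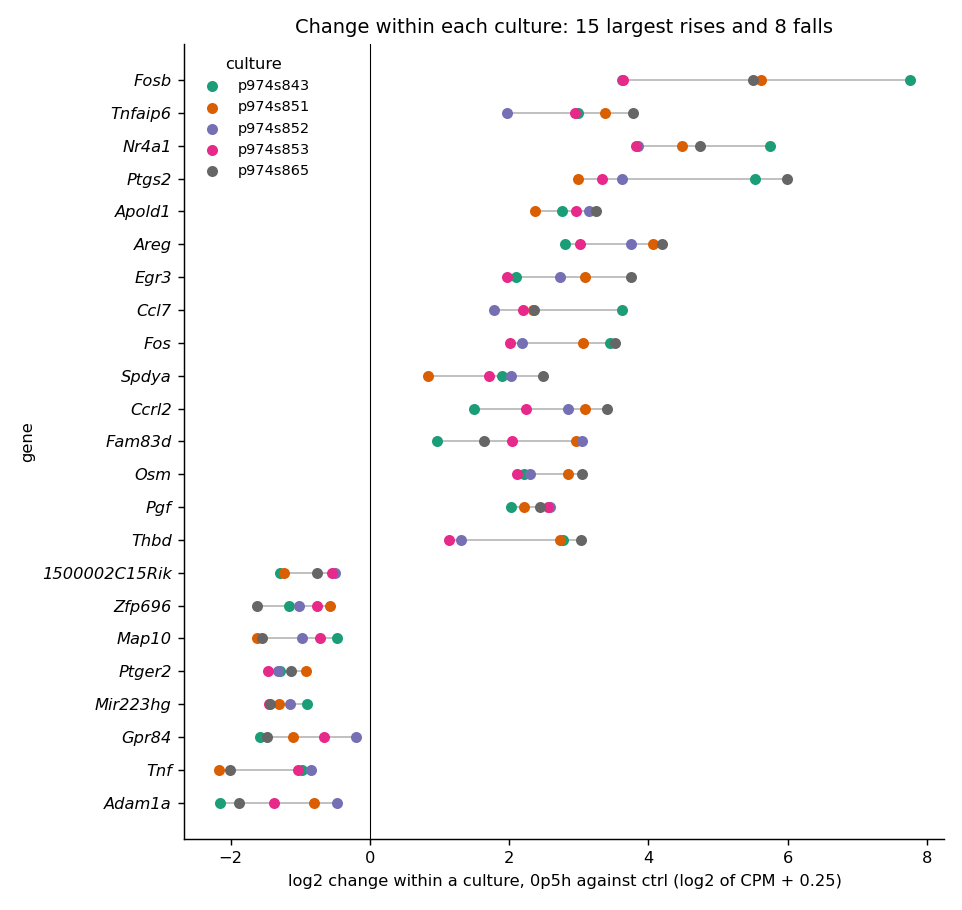
Change within each culture, as the difference of log2(CPM + 0.25) between the 0p5h and the ctrl library (x axis), for the 15 largest rises and the 8 falls (y axis). Each point is 1 culture and the grey line spans the 5 cultures. All 5 points lie on the same side of 0 for each of these genes, which were called on these same cultures.

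AP-1 is a dimer of FOS and JUN proteins, and its genes made up the list with the largest single rise. Of 14 AP-1 genes tested, 5 were called higher and 0 lower (median log2 fold change 0.34, against -0.01 over all genes tested). Over all genes tested, 0.58% were called higher and 0.0627% lower. Members of this and the later lists were chosen with earlier results of these data known, so their counts carry no test. *Fosb* (ENSMUSG00000003545, chromosome 7, 19302721 to 19310045) stood at 0.781, 4.46, 6.61, 7.70 and 7.53 CPM in the ctrl set and at 223, 232, 83.9, 98.5 and 352 CPM in the 0p5h set. The sets lay far apart, and the ctrl library of culture p974s843 was the lowest of the 5. Its log2 fold change was 5.14 (SE 0.49; edgeR, Benjamini-Hochberg adjusted p = 0.000435). *Fos* (ENSMUSG00000021250, chromosome 12, 85473890 to 85477273) went from 27.3, 26.7, 32, 38.6 and 19.3 CPM to 300, 223, 147, 156 and 225 CPM, with no overlap between the sets. *Junb*, the called gene with the highest mean CPM (a scale not corrected for length), went from 462, 372, 308, 460 and 359 CPM to 1435, 1133, 739, 1272 and 1291 CPM, a log2 fold change of 1.55. *Fosl2* rose by 1.16 and *Fosl1* by 1.01 on the log2 scale. Not all members followed. *Atf3*, a stress-induced partner, passed below 2-fold at 0.53 (adjusted p = 0.00551), whereas *Jun* (71.3 ± 9.81 against 59.1 ± 12 CPM, SD, n = 5, log2 fold change -0.29) and *Batf3* (0.15) did not pass. The call for *Fosl1* was lost without culture p974s843, p974s851, p974s853 or p974s865.

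All 3 *Nr4a* genes, which encode nuclear receptors without a known ligand, passed the test. *Nr4a1* (ENSMUSG00000023034, chromosome 15, 101266846 to 101274792) stood at 3.72, 11.3, 7.16, 10.01 and 16.7 CPM in the ctrl set and at 213, 257, 106, 145 and 452 CPM in the 0p5h set, far apart in every culture. Its log2 fold change was 4.55 (SE 0.25; edgeR, Benjamini-Hochberg adjusted p = 1.38e-05). *Nr4a2* rose by 1.49 on the log2 scale, from 45.1 ± 20.7 to 120 ± 25.5 CPM (SD, n = 5), a call lost without culture p974s851. *Nr4a3* passed below 2-fold (0.60), at 473 ± 38.6 CPM in the ctrl set and 737 ± 179 CPM in the 0p5h set. Among 9 *Egr* and *Ier* genes tested, 3 were called higher and 0 lower (median 0.28). *Egr3* went from 0.643, 0.936, 0, 0.257 and 2.83 CPM to 3.59, 9.81, 1.41, 1.73 and 41.2 CPM. Culture p974s865 was the highest in both sets, which overlapped. *Egr2* rose by 1.41 and *Egr1* by 2.14 on the log2 scale, and the call for *Egr1* was lost without culture p974s851 or p974s865. *Klf4*, a zinc finger factor of myeloid cells, rose by 1.47 and was the 1 of 10 *Klf* genes that passed.

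**Figure D3:**
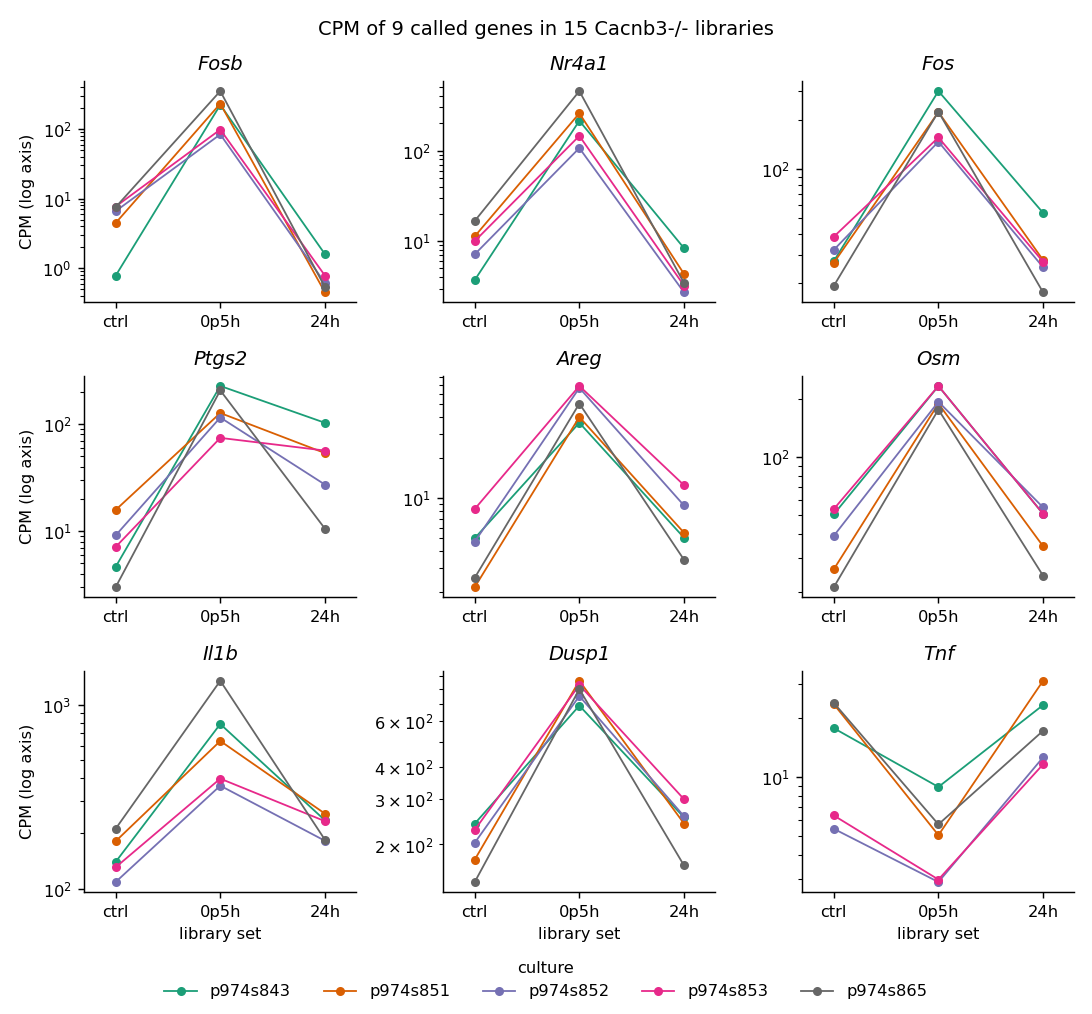
CPM on a log axis (y axis) of 9 called genes in the 15 *Cacnb3*-/- libraries by set (x axis). Each line joins the libraries of 1 culture. For 8 of the genes the 0p5h library is the highest of each culture, and for *Tnf* it is the lowest.

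Genes known to respond to cAMP through CREB, a factor that binds the cAMP response element (CRE), were called in part. Of 13 tested, 4 were called higher and 0 lower, and 7 did not pass at any fold (median 0.49). *Dusp1*, a phosphatase that switches off MAP kinases, went from 241, 175, 203, 228 and 143 CPM to 690, 860, 751, 829 and 799 CPM. The 5 libraries of the 0p5h set were closer to each other than those of the ctrl set in relative terms, and the log2 fold change was 1.997 (SE 0.13; edgeR, Benjamini-Hochberg adjusted p = 3.73e-05). *Sik1*, a kinase that feeds back on CREB coactivators, rose by 1.90, *Rgs2*, which turns off Gq proteins, by 1.71, and *Gem*, a small GTPase that binds calcium channel β subunits, by 1.16 on the log2 scale. *Rgs2* moved from 125 ± 19.5 to 414 ± 63.2 CPM (SD, n = 5). *Crem* passed below 2-fold (0.65, adjusted p = 0.0117), and *Pde4b* did not pass (274 ± 35.5 against 390 ± 74.0 CPM, adjusted p = 0.0634).

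Feedback regulators of MAP kinases and receptor tyrosine kinases formed a further group. Of 10 dual-specificity phosphatases, *Dusp1*, *Dusp4* (1.22) and *Dusp14* (1.02) were called higher and 0 lower (median 0.16). Culture p974s843 differed from the others for *Dusp4*, at 9.79 CPM in the ctrl set and 10.6 CPM in the 0p5h set, against 4.03 to 5.67 CPM and 12.2 to 16.9 CPM elsewhere. The call was lost without each of the other 4 cultures. The call for *Dusp14* was lost without culture p974s865. *Dusp5* passed below 2-fold (0.77), and so did *Dusp2*, which was lower (-0.79) in 5 of 5 cultures. Of 10 other feedback genes, *Areg* and *Errfi1* were called higher (median 0.48), and *Spry1* passed below 2-fold (0.81). *Errfi1*, an inhibitor of the EGF receptor, rose by 1.12, and *Areg*, a ligand of that receptor, went from 5.01, 2.16, 4.72, 8.28 and 2.54 CPM to 36.5, 40.2, 66.5, 68.7 and 50.7 CPM, a log2 fold change of 3.57 with no overlap.

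Genes that shorten the life of mRNA or slow growth had 1 call in 9, *Btg2*, which recruits deadenylases. It went from 340, 209, 283, 396 and 207 CPM to 954, 890, 1105, 1211 and 842 CPM (log2 fold change 1.82). *Zfp36* (0.80), *Zfp36l1* (0.58) and *Tob2* (0.77) passed below 2-fold, and *Btg1* did not pass (0.17). Among 16 other immediate early and growth control genes, 4 were called higher and 0 lower (median 0.39). These were *Apold1* (3.66), an early gene of endothelium, the kinase *Plk3* (1.52), the pseudokinase *Trib1* (1.25) and the stress sensor *Gadd45g* (1.15). *Cdkn1a* passed below 2-fold (0.60), and *Mcl1* did not pass (0.19). JAK-STAT feedback had 1 call in 11, the kinase *Pim3* (1.34), with *Pim1* (0.76) and *Socs1* (0.80) higher below 2-fold and *Socs6* lower (-0.49). NF-κB subunits and inhibitors had 1 call in 13, *Nfkbiz* (1.41), an atypical IκB that acts in the nucleus, while *Tnfaip3* passed below 2-fold (0.82) and *Nfkb2* did not pass (0.21). The leucine zipper factor *Nfil3* rose from 215 ± 50.3 to 469 ± 48.4 CPM (SD, n = 5, log2 fold change 1.14), a call lost without culture p974s865.

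**Figure D4:**
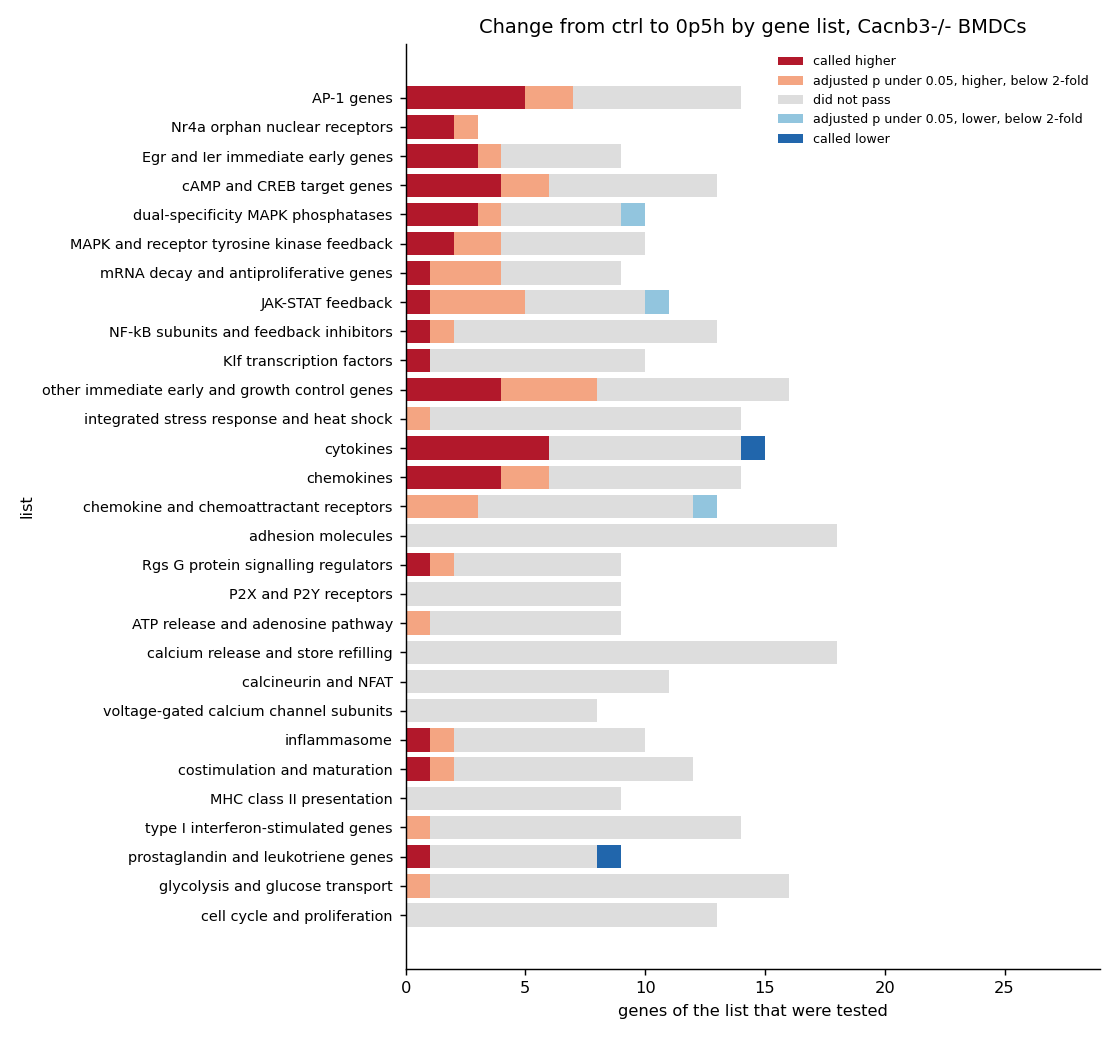
Number of genes tested in each functional list shown (x axis), split by outcome of the test from ctrl to 0p5h in *Cacnb3*-/- BMDCs. The cytokine list holds 7 calls and the AP-1 list 5, and no gene was called in those of adhesion, P2 receptors, calcium release or MHC class II.

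Cytokines held several rises and 1 fall. Of 15 tested, 6 were called higher and 1 lower (median 0.52), against 0.58% and 0.0627% of all genes tested. *Osm*, a cytokine of the IL-6 family, went from 50.4, 26.1, 39.0, 53.6 and 21.1 CPM to 233, 189, 193, 234 and 176 CPM, a narrow range in the 0p5h set (log2 fold change 2.49, SE 0.14; edgeR, Benjamini-Hochberg adjusted p = 1.38e-05). *Il6* itself rose by 2.13 and *Lif*, of the same family, by 1.89 on the log2 scale. *Il1b*, the precursor of IL-1β, went from 140, 181, 109, 131 and 212 CPM to 785, 635, 363, 397 and 1347 CPM, with no overlap. *Il12b*, a subunit of IL-12 and IL-23, rose by 1.40, though in culture p974s843 it stood at 53.8 and 61.8 CPM. *Il10* was called at 0.437 ± 0.278 and 1.39 ± 0.851 CPM (SD, n = 5). The call for *Il12b* was lost without culture p974s851 or p974s852, and that for *Il10* without p974s851, p974s852 or p974s865. *Vegfa* (0.52) and *Il1rn* (0.68) did not pass.

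*Tnf*, a cytokine that promotes inflammation, went the other way. It stood at 17.7, 23.5, 5.43, 6.35 and 23.9 CPM in the ctrl set and at 8.88, 5.04, 2.90, 2.99 and 5.72 CPM in the 0p5h set. It was lower in 5 of 5 cultures, with overlap between the sets because cultures p974s852 and p974s853 were low in both. It fell by 1.54 on the log2 scale (SE 0.21; edgeR, Benjamini-Hochberg adjusted p = 0.00387).

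Of 14 chemokine genes tested, 4 were called higher and 0 lower (median 0.69). The monocyte attractants *Ccl2* and *Ccl7* rose by 1.89 and 3.09 from 1.49 ± 0.712 and 0.440 ± 0.410 CPM (SD, n = 5), so both were low. *Ccl4*, an attractant of immune cells, rose by 2.15, from 5.29, 8.13, 4.01, 5.58 and 2.71 CPM to 37.6, 24.9, 9.23, 15.4 and 30.1 CPM. *Cxcl2*, a neutrophil attractant, rose by 1.38. Chemokines typical of mature DCs did not pass. *Ccl22* stood at 4097 ± 1038 and 4996 ± 812 CPM and *Ccl5* at 2629 ± 445 and 3246 ± 658 CPM (SD, n = 5, adjusted p = 0.123 and 0.151). No chemoattractant receptor of 13 was called (5 at an unadjusted p under 0.05, 0 called by DESeq2 or limma-voom). Over all genes tested, 1968 of 12750 had an unadjusted p under 0.05. Of these, 3 passed higher below 2-fold, *Cxcr4* (0.49), *Gpr183* (0.89) and *S1pr1* (0.68), and *Fpr1* passed lower (-0.63). *Ccr7*, which guides DCs to lymph nodes, did not pass (0.25, adjusted p = 0.349) but did without culture p974s843 (0.39). In that fit 8 of the 13 passed and 0 were called, while 1198 of all 12709 genes tested passed. *Ccr7*, *Cxcr4*, *Gpr183* and *S1pr1* were higher, and *Fpr1*, *Ccr2* (-0.54), *Fpr2* (-0.40) and *Cx3cr1* (-0.31) lower. The call for *Ccl2* was lost without culture p974s865.

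Both called genes of the prostaglandin list moved in opposite directions. *Ptgs2* (ENSMUSG00000032487, chromosome 1, 150100031 to 150108227), the inducible cyclooxygenase, went from 4.64, 15.8, 9.13, 7.12 and 3.002 CPM to 226, 127, 115, 74.2 and 206 CPM. The sets were far apart, and the log2 fold change was 4.28 (SE 0.43; edgeR, Benjamini-Hochberg adjusted p = 0.000672). *Ptger2*, a receptor for prostaglandin E2, went from 17.1, 11.4, 6.53, 9.43 and 17.7 CPM to 6.87, 5.88, 2.46, 3.25 and 7.94 CPM and was lower in 5 of 5 cultures (log2 fold change -1.26, adjusted p = 0.00029 from the same test). The other 7 of the 9 genes tested did not pass, *Ptger4* among them (0.28).

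Further large rises lay outside the lists. *Tnfaip6*, which binds hyaluronan, had the second largest log2 fold change, 4.75, at 0.138, 0.0720, 0.157, 0 and 0.127 CPM in the ctrl set and 2.84, 3.09, 1.34, 1.68 and 4.91 CPM in the 0p5h set. Its size rests on few reads in the ctrl set. *Ccrl2*, an atypical receptor that binds chemerin, went from 56, 33, 29.4, 33.4 and 38.0 CPM to 159, 282, 212, 159 and 404 CPM (2.61). *Pgf*, placental growth factor, rose by 2.38 and *Thbd*, thrombomodulin, by 2.31. *Spdya* (2.62) and *Fam83d* (2.57), which take part in cell division, stayed under 3 CPM in each of the 10 libraries. *Spdya* overlaps *Trmt61b* on the other strand, which did not pass (0.77, adjusted p = 0.0519), and reads were counted without regard to strand. *Gm17024*, called at 2.05, lies within *Ifrd1* on the same strand, which passed below 2-fold (0.79; edgeR, Benjamini-Hochberg adjusted p = 0.0189). Which of the 2 genes its reads came from was not tested. The call for *Gm17024* was lost without each culture but p974s843. Surface proteins named here after their values were seen were *Trem1* (1.84), *Ackr3* (1.81), *S1pr3* (1.23), *Gpr171* (1.18) and *Tnfsf9* (1.06), the last from the costimulation list, where 1 of 12 was called (median 0.23) and *Cd83* and *Tnfrsf9* did not pass.

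Falls were few, and the ctrl means of the 8 genes were at or under 18.7 CPM. *Mir223hg*, the host transcript of the myeloid microRNA miR-223, went from 22.8, 14.5, 18.3, 21.2 and 16.6 CPM to 12.1, 5.70, 8.12, 7.61 and 5.99 CPM, with no overlap (log2 fold change -1.28). *Gpr84*, a receptor for medium-chain fatty acids, changed by -1.36, although cultures p974s852 and p974s853 stood under 1 CPM in both sets. *Zfp696* (-1.13), *Map10* (-1.22), *1500002C15Rik* (-1.04) and *Adam1a* (-1.93) were called at mean levels of 4.17, 3.09, 1.94 and 1.06 CPM in the ctrl set. *Ptger2*, *Mir223hg*, *Gpr84* and *Tnf* were called in each of the 5 fits that left out 1 culture, and *1500002C15Rik* in 0 of the 5. Of the others, *Zfp696* was lost in 2 of the 5 and *Map10* and *Adam1a* in 3 each. *Adam1a* overlaps *Mapkapk5* (0.08) on the same strand and *Tmem116* (-0.40) on the other. *1500002C15Rik* overlaps *Ssu72* (0.11) and *Zfp696* overlaps *Armc5* (-0.20), both on the other strand. None of these 4 partners passed.

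No P2 receptor and no gene of the calcium lists passed the test over the 5 cultures. Of 9 P2X and P2Y genes tested, 0 passed (median log2 fold change -0.26). By edgeR 5 of them had an unadjusted p under 0.05, all lower in the 0p5h set, while 0 passed in DESeq2 and 1 in limma-voom. Over all genes tested, 1968 of 12750 had an unadjusted p under 0.05 by edgeR, the background for the counts in this section. *P2ry10* stood at 223 ± 89.2 and 257 ± 111 CPM and *P2rx4* at 165 ± 40.5 and 170 ± 39.0 CPM (SD, n = 5). Without culture p974s843, 3 of the 9 had an adjusted p under 0.05, against 1198 of all 12709 genes tested in that fit. These were *P2ry1* (-0.63), *P2ry13* (-0.91) and *P2ry6* (-0.41), named after their values were seen, and 0 were called. In the calcium lists *Orai2* (-0.27) and *Rcan1* (0.47) passed in that fit, and *Cacna1c*, which over the 5 cultures was too low to be tested, was called there (1.21). Of 18 genes of calcium release and store refilling, 0 passed (median 0.0, 2 at an unadjusted p under 0.05, 0 in DESeq2 and limma-voom), *Plcg1* among them (0.08). Of 8 voltage-gated calcium channel subunits, 0 passed (0 at an unadjusted p under 0.05, 0 in DESeq2 and limma-voom), such as *Cacna1d* (-0.17) and *Cacnb1* (-0.12). Of 11 calcineurin and NFAT genes 0 passed (1 at an unadjusted p under 0.05, 1 in DESeq2 and 1 in limma-voom). In the ATP release and adenosine list, *Adora2a*, the adenosine receptor coupled to cAMP, was the 1 of 9 that passed, below 2-fold (0.36, adjusted p = 0.0363).

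Adhesion genes, which act in migration, had no calls. The background for the unadjusted counts that follow was again 1968 of all 12750 genes tested. Of 18 adhesion genes 0 passed (median 0.06, 2 at an unadjusted p under 0.05, 0 in DESeq2 and limma-voom), with *Itgb1* at 694 ± 102 and 800 ± 126 CPM (SD, n = 5) and *Cd44* at 396 ± 97.8 and 434 ± 97.4 CPM. MHC class II genes did not pass (0 of 9, 4 at an unadjusted p under 0.05, 2 in DESeq2 and 1 in limma-voom), with *Cd74* at a log2 fold change of 0.26 and *H2-Aa* at 0.27. Without culture p974s843, 4 of the 9 passed below 2-fold, those 2 among them, against 1198 of all 12709 genes tested in that fit. Of the other lists, 1 gene each passed below 2-fold among 14 interferon-stimulated genes (*Usp18*, 0.34, with *Mx1* at -0.38 not passing), among 14 genes of the integrated stress response and heat shock (*Ddit4*, 0.82) and among 16 of glycolysis, where *Aldoa* (0.22) and *Ldha* (0.23) did not pass. Without culture p974s843, 10 of the 16 glycolysis genes passed, all higher and below 2-fold, and 8 of the 12 costimulation genes. The background in that fit was again 1198 of 12709. In that fit *Cxcl10* (1.27), in the interferon and chemokine lists, was called higher. So were *Chac1* (1.11) and *Ddit4* (1.002) of the stress list. *Nlrp3* passed below 2-fold (0.75) and *Txnip* did not pass (-0.22) in the inflammasome list, whose 1 call in 10 was *Il1b*. Of 9 *Rgs* genes, *Rgs2* was called and *Rgs1* passed below 2-fold (0.76). None of 13 cell cycle genes passed (0 at an unadjusted p under 0.05, 0 in DESeq2 and limma-voom).

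The called genes were short. The 74 that rose had a median span of 6238 bases on the genome, against 21035 over all genes tested, and a median exon length of 2386 against 3676. Of the 74, 69 were annotated as protein-coding. Their promoters were read from RefSeq windows on GRCm38.p6, which cover 250 bases before to 50 after a start site and matched 44 of the 74 rises and 9653 of all genes tested by symbol. The windows below are shown because they hold the full CRE, TGACGTCA, in capitals, and belong to rises of the EGF receptor, MAP kinase and mRNA decay groups described above.
Areg, chr5:91139349-91139648, + strand: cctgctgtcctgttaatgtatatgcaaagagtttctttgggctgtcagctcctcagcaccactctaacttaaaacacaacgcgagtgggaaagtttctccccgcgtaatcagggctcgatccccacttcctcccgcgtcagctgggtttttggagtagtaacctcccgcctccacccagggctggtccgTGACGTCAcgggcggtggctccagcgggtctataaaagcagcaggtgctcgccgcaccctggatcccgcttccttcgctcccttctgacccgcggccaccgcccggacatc
Dusp1, chr17:26508423-26508722, - strand: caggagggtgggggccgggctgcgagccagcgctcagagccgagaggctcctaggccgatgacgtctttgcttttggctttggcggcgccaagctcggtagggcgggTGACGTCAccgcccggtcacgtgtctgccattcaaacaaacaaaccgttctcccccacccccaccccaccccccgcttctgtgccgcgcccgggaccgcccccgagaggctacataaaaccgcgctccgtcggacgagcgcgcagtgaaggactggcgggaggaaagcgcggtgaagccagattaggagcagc
Btg2, chr1:134079106-134079405, - strand: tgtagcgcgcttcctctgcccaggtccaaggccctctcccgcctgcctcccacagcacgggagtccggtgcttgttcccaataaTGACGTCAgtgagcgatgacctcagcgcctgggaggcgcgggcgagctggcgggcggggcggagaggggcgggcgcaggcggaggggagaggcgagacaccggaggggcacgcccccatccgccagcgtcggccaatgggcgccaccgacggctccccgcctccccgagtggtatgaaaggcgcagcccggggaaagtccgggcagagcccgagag
Errfi1, chr4:150854820-150855119, + strand: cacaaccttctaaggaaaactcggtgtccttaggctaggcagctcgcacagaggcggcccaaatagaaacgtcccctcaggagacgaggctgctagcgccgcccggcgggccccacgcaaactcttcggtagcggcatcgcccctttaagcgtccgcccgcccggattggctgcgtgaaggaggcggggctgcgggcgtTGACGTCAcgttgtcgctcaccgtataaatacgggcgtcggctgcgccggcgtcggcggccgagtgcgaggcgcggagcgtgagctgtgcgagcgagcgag
The full CRE was found in windows of 4 of the 44 genes that rose (9.09%), against 3.57% of all 9653 genes, and these are the 4 shown. Its core of 5 letters, TGACG on either strand, which the full site contains, was found for 24 of the 44 (54.5%) against 35.5%. The NF-κB motif, searched by its consensus on both strands, was found for 11 (25%) against 12.7%, and TATAAA for 11 (25%) against 8.44%. The AP-1 motif TGACTCA was found for 3 (6.82%) against 4.56%, and the CArG box for 1 (2.27%) against 1.5%. These are matches of letters within 300 bases and carry no test.

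The libraries named 24h of the same cultures give a further level for each gene. Those of cultures p974s843, p974s852 and p974s853 held 8237393, 11986891 and 11388082 counts, below the range of the 10 libraries. Their mitochondrial shares were 16.5%, 10.5% and 13.6%. The 24h library of p974s852 also ran in another lane than its ctrl and 0p5h libraries. The part of these in the 24h levels was not tested. For 70 of the 74 rises the mean of the 24h set was nearer to that of the ctrl set. For *Ccl4*, *Il6*, *Il10* and *Ptgs2os2* it was nearer to that of the 0p5h set. For 6 of the 8 falls it was nearer to the ctrl set, and for *Adam1a* and *Gpr84* to the 0p5h set. The same was not counted over all genes tested. *Fosb* stood at 5.42 ± 2.89, 198 ± 110 and 0.797 ± 0.463 CPM in the ctrl, 0p5h and 24h sets (SD, n = 5), and *Nr4a1* at 9.78 ± 4.84, 235 ± 135 and 4.43 ± 2.28 CPM. *Il6* stood at 9.25 ± 4.88, 40.0 ± 22.4 and 30.8 ± 13.4 CPM, and *Ptgs2* at 7.93 ± 4.96, 150 ± 64.1 and 50.1 ± 35 CPM. These values are given side by side with no test, since each set would serve as the reference of another.

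Whether the change differed from that in WT BMDCs was tested as an interaction over the 20 libraries of both genotypes, which share no library. In WT, 65 of 13085 genes were called higher (0.497%) and 11 lower (0.0841%). All 73 rises that were also tested in WT had a positive change there, against 74.8% of all 12606 genes tested in both having the same sign. Of these, 55 were called in both, which is 75.3% of the 73 and 84.6% of the 65. Over the 73, the median log2 fold change was 1.52 in *Cacnb3*-/- and 1.32 in WT BMDCs. The 73 were picked by their change in *Cacnb3*-/- BMDCs, which can raise their values there. Neither these medians nor the gaps given below therefore measure a genotype difference. All 7 falls tested in WT had the same sign there, and 3 were called. In WT the log2 fold change of *Tnf* was -1.74 and that of *Fosb* 5.67. Among the genes called in *Cacnb3*-/- BMDCs and tested in WT, the gap between the log2 fold changes was widest for *Tnfaip6*, at 4.75 in *Cacnb3*-/- against 2.36 in WT, followed by *Ccl4* (2.15 against 0.90) and *Fam83d* (2.57 against 1.57). The interaction was called for 0 of 13465 genes (0%), with a smallest Benjamini-Hochberg adjusted p of 0.9999 in edgeR. Before adjustment 312 genes had p under 0.05, where 673 would be expected by chance, and DESeq2 called 0. Without *Cacnb3*-/- culture p974s843 that unadjusted count was 927, against 678 expected by chance, again with 0 called. A difference between the genotypes was thus not detected at this size, which does not show that the changes were equal.

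**Figure D5:**
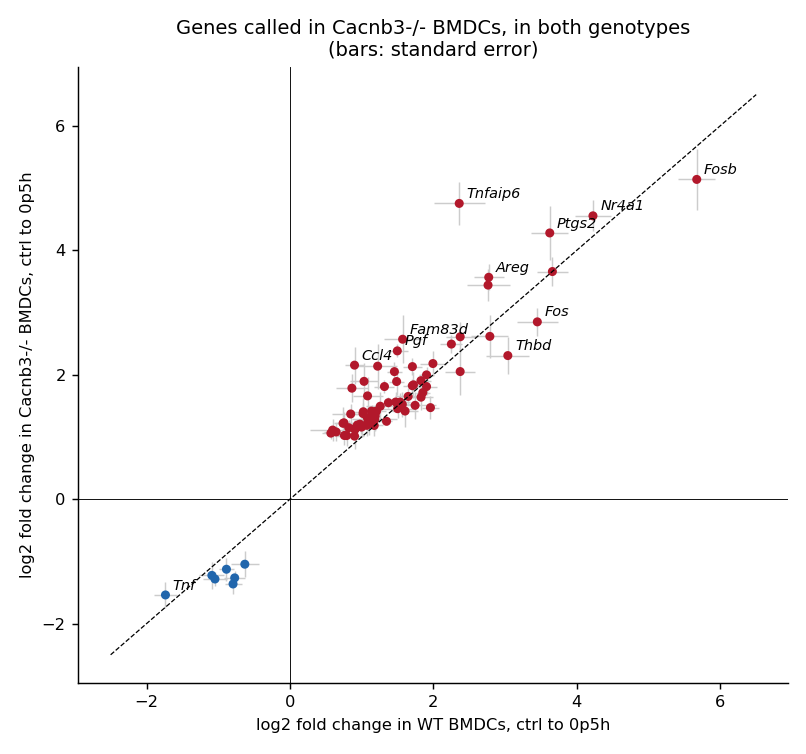
Log2 fold change from ctrl to 0p5h in *Cacnb3*-/- (y axis) and WT BMDCs (x axis) of the genes called in *Cacnb3*-/- BMDCs and tested in both, with standard errors as bars. The dashed line marks equal change, red points are rises and blue points falls, and all of them have the same sign in both genotypes.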

How the data were processed

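RNA of BMDCs was sequenced in 30 libraries, of which 10 are compared here. The authors deposited raw counts per gene for 43629 genes. Per the file header featureCounts 1.5.1 made them from read 1 over exons of Ensembl 79 (GRCm38), with no strand option. The labels name STAR 2.4 and mm10, the methods GRCm39, so coordinates follow the header. Depth ran from 12703988 to 22826581 counts in these 10 libraries, and intervals and tests measure the spread between cultures. Symbols came from GENCODE and RefSeq by Ensembl identifier (38984 matched).

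Genes kept by filterByExpr were tested with edgeR 4.0.16 (TMM, quasi-likelihood) in R 4.3.3, each culture number being a replicate block, with Benjamini-Hochberg adjustment, and called at an adjusted p under 0.05 and at least 2-fold. The method was tested on simulated data. The deviations of same-numbered libraries from their group means correlated at 0.327 to 0.891 in the 5 pairs, each number best with itself. For p974s843 this value was 0.327, and the highest with another number was 0.263. In 5 of 5 pairs both libraries matched in sex, which cannot show pairing where cultures share a sex. Libraries were therefore paired by culture number. By the file header, both libraries of each *Cacnb3*-/- culture ran in the same sequencing lane. Those of WT culture p974s846 ran in different lanes. DESeq2 1.42.0, limma-voom 3.58.1, scaling, filter, fold, GC and left-out cultures were alternatives. Functional and marker lists and members were chosen with earlier results of these data known, and 1 functional list is not reported here. Named genes were the 15 largest rises, all falls, the 10 most abundant calls, called list members and the most abundant uncalled ones.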

Additional observations from a re-analysis of the deposited data

Results flagged for a closer look

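In 2 of 86 groups of 5 values checked, 1 culture lay far from the other 4, where chance alone flags about 1 in 20 groups. Both were changes of culture p974s843. Its log2 change was 0.494 for *Traf4*, an adaptor of TNF receptor signalling, against 1.43 to 1.66 in the other 4 cultures. It was 0.119 for *Dusp4*, a MAP kinase phosphatase, against 1.31 to 1.57. In the same culture the mitochondrial share of counts rose from 4.83% to 10.5%, while it was lower in the 0p5h library of the other 4. Its part in these values was not tested.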

How the results depend on the processing

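Of the 74 rises and 8 falls, 58 and 4 stayed called whichever culture was left out, and 34 and 1 in all 12 settings that refitted the data. Without the replicate block 36 genes were called higher and 1 lower, all among the paired calls. With no fold minimum 206 and 93 passed, with no filter on low counts 23 were called lower, and with all 30 libraries in one fit 16 were. Leaving out 1 culture gave 61 to 83 rises and 4 to 31 falls. The falls numbered 31 without p974s843, 5 without p974s851 and 4 without p974s865. The share of rises among the calls was 90.2%, against 78.1% with no filter, 68.9% with no fold minimum and 72.8% without p974s843. DESeq2 called 73 and 7, its size factors in edgeR 74 and 8, limma-voom 76 and 8, and removal of the GC trend with the block 75 and 9. The log2 fold change of *Cacnb3* ran from -0.21 to 0.055 with 1 culture left out, the one above 0 being without p974s843, and that of *Ddit4* was called there at 1.002. The interaction was called for 0 genes in all 13 fits. The cause of these shifts was not tested. Depth limits genes near 1 CPM, such as *Fosl1* and *Adam1a*.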

Other observations

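Genes with a symbol of Zfp and a number, most of which encode zinc finger proteins, were shifted down as a group. The group was picked after the values were seen, so it carries no test. Of 320 tested, 285 had a negative log2 fold change from ctrl to 0p5h (89.1%, against 52.0% of all genes tested), with a median of -0.26 against -0.01. They made up 22 of the 93 genes that fell at an adjusted p under 0.05 with no fold minimum (23.7%) and 3 of the 206 that rose (1.46%), against 2.51% of all genes tested. Their number among such falls moved with the setting, at 74 of 574 without culture p974s843, 2 of 19 without p974s851, 7 of 27 without p974s852, 6 of 46 without p974s853, 2 of 11 without p974s865 and 0 of 3 without the replicate block. The 3 that rose were *Zfp36*, *Zfp36l1* and *Zfp703*, of which the first pair bind mRNA. Among the falls were *Zfp472* (-0.73; edgeR, Benjamini-Hochberg adjusted p = 0.00844), *Zfp770* (-0.67), *Zfp267* (-0.56) and *Zfp62* (-0.38). Their median change was -0.32, -0.20, -0.13, -0.26 and -0.21 in cultures p974s843, p974s851, p974s852, p974s853 and p974s865. After the GC trend of each library was removed, the median was -0.22, with 281 of 320 negative (87.8%). All genes tested in that fit had a median of 0.006, with 48.4% negative. In WT, which shares no library, 296 of 332 were negative (89.2%) with a median of -0.21. All genes tested in WT had a median of 0.0085, with 47.2% negative.

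Other genes that fell below 2-fold, also named after their values were seen, include *Tk1*, a thymidine kinase (-0.97), the phosphatase *Dusp2* (-0.79) and *Angptl4* (-0.66). *Hilpda* and *G0s2*, both inhibitors of the triglyceride lipase ATGL, were called higher at log2 fold changes of 1.56 and 1.78. *Dgat1*, which completes triglyceride synthesis, passed below 2-fold at 0.92. They too were named after their values were seen. *Hilpda* went from 64.6 ± 14.6 to 204 ± 89.4 CPM (SD, n = 5), while *G0s2* stayed under 3 CPM in each library, with overlap between the sets.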
